A study of Mus musculus with 15 samples.

Results

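The mRNA of 5 genes that encode secreted products, Penk, Il22, Tgm2, Nov and Hbegf, was followed through 15 RNA sequencing libraries of mouse CD8+ T cells. The genes are 5 of the 11836 listed in 2 tables of FPKM, which are fragment counts scaled for exon length and library size, and were selected on the size of their fall in these libraries, either with an inhibitor of PI3K p110δ or after removal of IL-2. The first table holds 11262 genes and has rows for Penk, Il22, Tgm2 and Hbegf. The second holds 11211 genes and has rows for Penk, Tgm2, Nov and Hbegf. For each gene the question was whether the other treatment lowered it too.

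All cells came from LCMV-P14 TCR transgenic mice, whose CD8+ T cells express a receptor for a peptide of lymphocytic choriomeningitis virus. No mice without this transgene are represented, and whether some cells carried other receptors was not tested. The first table covers naïve cells taken ex vivo, cells given 24 h of TCR activation (TCR), and cells given the same activation together with 10 µM IC87114, a p110δ inhibitor (PI3Kdi), with 3 replicates each. Lymph node cells of 3 mice were pooled for each replicate number and divided among these conditions. The mice were adult females, and cells were sorted for CD8 before RNA was taken. In both activated groups the medium held the peptide at 100 ng/ml, IL-12 at 2 ng/ml and IL-2 at 20 ng/ml, so IL-2 was present with and without the inhibitor. The second table covers cytotoxic T lymphocytes (CTL) made by 48 h of activation and 4 days in 20 ng/ml IL-2, which were then washed and either returned to 20 ng/ml IL-2 or kept without IL-2 for 24 h, with 3 replicates each. No age or sex is given here for the mice behind the CTL. Each treatment was given at a single cell stage. A difference between the treatments therefore cannot be told apart from one between the stages. The series' design text sets these 6 CTL samples outside the manuscript.

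PI3K p110δ is the class I PI3K catalytic subunit that lymphocytes use downstream of their antigen receptors, and it makes the lipid PIP3 that recruits AKT to the membrane. IL-2 signals through JAK kinases and STAT5 and keeps CTL growing and metabolically active. The 5 products act outside the cell in different ways. Penk encodes proenkephalin, a precursor that prohormone convertases cut into opioid peptides. Il22 encodes interleukin-22, an IL-10 family cytokine that T cells and innate lymphoid cells send to epithelia. Tgm2 encodes transglutaminase 2, which crosslinks proteins inside and outside cells. Nov, also named Ccn3, encodes a matricellular protein of the CCN family. Hbegf encodes heparin-binding EGF-like growth factor, an EGF receptor ligand made as a membrane precursor and released by metalloproteinases.

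Penk is the member whose product is repeated within its own coding sequence, so the repeats are printed here. Its coding sequence of 268 codons holds 6 copies of the Met-enkephalin sequence and 1 copy of the Leu-enkephalin sequence. They lie on the minus strand of mm10 between chr4:4134334-4134348 for the first and chr4:4133848-4133862 for the last. Capitals mark the last codon, which sets the kind of enkephalin (ATG for methionine, CTG for leucine), and each run reads 5′ to 3′ on the coding strand of the GENCODE transcript.
Met-enkephalin unit 1: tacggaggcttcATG
Met-enkephalin unit 2: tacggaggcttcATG
Met-enkephalin unit 3: tatggcggcttcATG
Met-enkephalin unit 4: tatgggggcttcATG
Met-enkephalin unit 5: tacgggggcttcATG
Leu-enkephalin unit 6: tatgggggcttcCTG
Met-enkephalin unit 7: tacgggggctttATG
A single Penk mRNA therefore holds 7 stretches that spell an enkephalin, and which peptides are cut from its product was not measured. The FPKM below count mRNA, not peptide.

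The T cell markers Cd3e, Cd3d, Cd8a, Cd8b1 and Thy1 were all present, with a summed level of 958 FPKM or more in every library. No stromal marker of 3 had a row in either table. The tables give no counts, but their lowest values are spaced by what 1 fragment is worth, and this spacing put the libraries at an estimated 11300000 to 14600000 fragments in the first table and 9800000 to 12600000 in the second. These depths are estimates, and fragment numbers quoted below rest on them. A change in mRNA per cell and a change in the share of cells that make it cannot be told apart in these bulk samples.

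Penk, on chromosome 4 (chr4:4133531-4138819, minus strand, 2 exons), had a blank cell in all 3 naïve libraries. The first table holds blank cells and no written 0, and every 0 given from it here is a blank read as 0. In TCR activated cells it stood at 3.97, 2.18 and 1.19 FPKM in replicates 1, 2 and 3, and with PI3Kdi it stood at 0, 0.06 and 0.06 FPKM. Every inhibited library lay below every activated library. In CTL kept in IL-2 the same mRNA measured 3.56, 4.74 and 0.87 FPKM, and without IL-2 it measured 1.16, 1.84 and 0.79 FPKM. Here the groups overlapped, because replicate 3 in IL-2 was below replicates 1 and 2 without it.

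Il22, on chromosome 10 (chr10:118204942-118210047, plus strand, 5 exons), was also blank in all 3 naïve libraries. TCR activated cells held 2.84, 1.96 and 2.69 FPKM, and cells with PI3Kdi held 0.27, 0 and 0 FPKM. Only replicate 1 of the inhibited libraries had a value above 0, and it was below every activated library. The CTL table used here has no row for Il22, so the effect of IL-2 on it was not analysed. The annotation also holds Iltifb, a near-identical copy of Il22 with no row in the tables, and how reads shared by such copies were counted is not given in the sources used here, so the Il22 values are uncertain in that respect.

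Tgm2, on chromosome 2 (chr2:158116402-158146436, minus strand, 13 exons), was at 0, 0.06 and 0.05 FPKM in naïve cells. It reached 1.62, 0.70 and 1.27 FPKM in TCR activated cells and 0.66, 0.48 and 1.07 FPKM with PI3Kdi. These activated and inhibited groups overlapped, since replicate 3 with the inhibitor was above replicate 2 without it. In CTL kept in IL-2 it was at 67.03, 77.17 and 197.85 FPKM, and without IL-2 at 0.30, 0.21 and 0.89 FPKM. Replicate 3 was the highest library on both sides of the CTL comparison, and the CTL groups stood far apart.

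Nov, on chromosome 15 (chr15:54745702-54754039, plus strand, 5 exons, Ccn3 in the annotation), has a row in the CTL table only. CTL kept in IL-2 held 30.21, 24.54 and 34.32 FPKM, and CTL without IL-2 held 0.03, 0.18 and 0.39 FPKM. No library without IL-2 reached any library in IL-2, as for 38.5% of all genes in this comparison. The values without IL-2 corresponded to an estimated 1, 6 and 11 fragments. Its response to PI3Kdi was not analysed here.

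Hbegf, on chromosome 18 (chr18:36504927-36515805, minus strand, 6 exons), was at 0, 0.06 and 0 FPKM in naïve cells. TCR activated cells held 1.36, 2.22 and 1.42 FPKM, and cells with PI3Kdi held 0.86, 0.95 and 0.46 FPKM. Every inhibited library was below every activated library, and every inhibited library was above every naïve library. CTL kept in IL-2 held 12.74, 11.40 and 13.89 FPKM, and CTL without IL-2 held 0.07, 0.04 and 0.13 FPKM. The last 3 values corresponded to an estimated 2, 1 and 3 fragments.

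**Figure D1:**
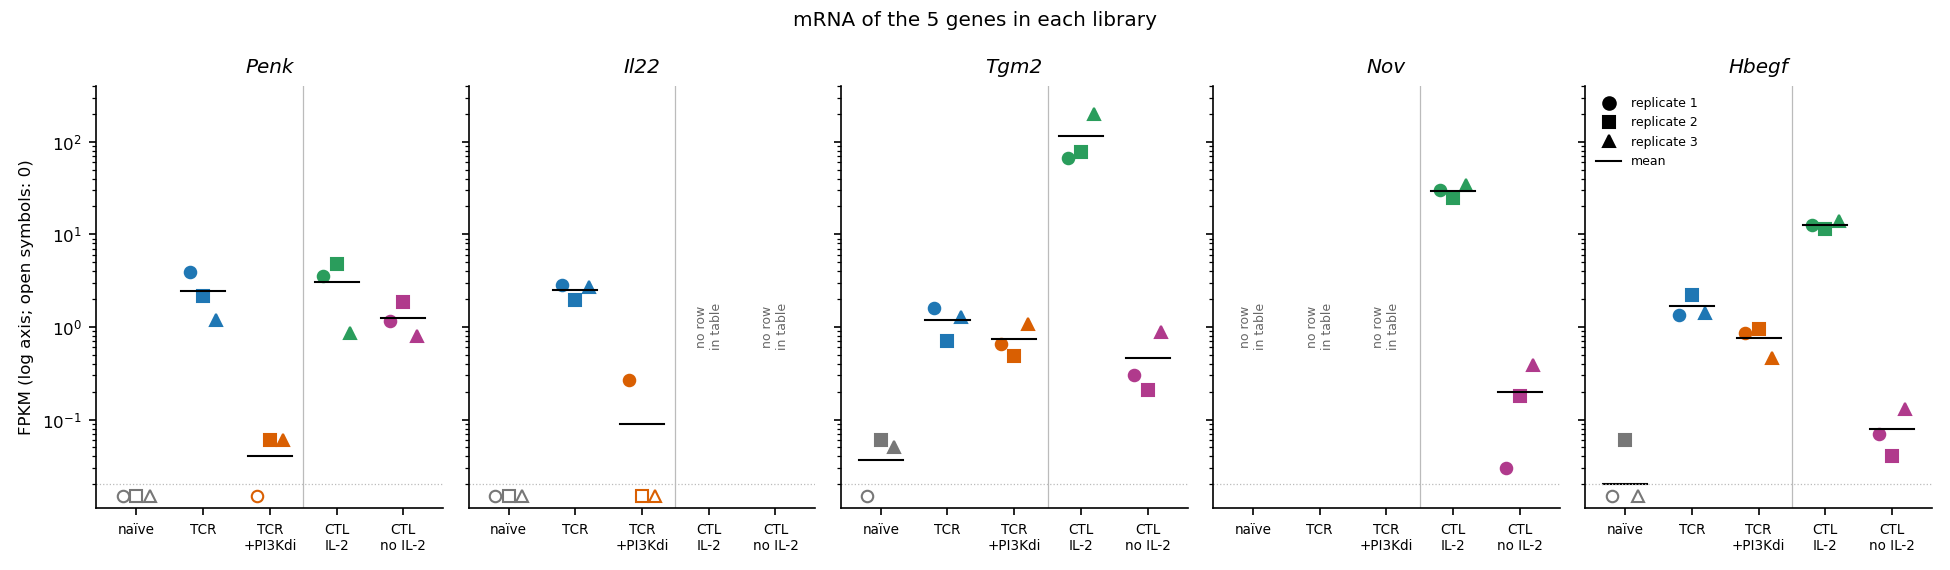
Level of each gene in each library, in FPKM on a log axis, with 1 symbol per replicate, a black line at the group mean and open symbols along the bottom for values of 0, which are blank cells of the first table read as 0. Penk and Il22 drop to or near 0 with PI3Kdi, while Tgm2, Nov and Hbegf drop below 1 FPKM in CTL without IL-2. The 2 tables, separated by the grey line, were normalised separately.

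The falls that picked the genes are given as a description. Ranked by log2 fold change on log2(FPKM + 0.1), Penk was 4th and Il22 5th from the bottom of 11262 genes with PI3Kdi against TCR, and Tgm2 was 2nd, Nov 4th and Hbegf 5th from the bottom of 11211 genes without IL-2. The selection did not state which treatment picked which gene, and they are assigned here to the treatment in which they ranked lower. Mean Penk fell from 2.45 ± 1.41 to 0.0400 ± 0.0346 FPKM with PI3Kdi (SD, n = 3), which made it 61.2-fold lower, and mean Il22 fell from 2.5 ± 0.47 to 0.0900 ± 0.1559 FPKM (SD, n = 3), which made it 27.7-fold lower. The depth behind these folds is small. Penk rested on an estimated 2 fragments with PI3Kdi against 147 without it, a ratio of 0.0139. Il22 rested on 4 against 111, a ratio of 0.0368. Both genes were picked for these falls, so no interval is given for the ratios. Without PI3Kdi replicate 1, Il22 had no value above 0 left with the inhibitor and no fold can be given.

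Without IL-2, mean Tgm2 went from 114 ± 73 to 0.467 ± 0.369 FPKM (SD, n = 3), 244-fold lower. Mean Nov went from 29.7 ± 4.9 to 0.2 ± 0.18 FPKM, 148-fold lower, and mean Hbegf from 12.7 ± 1.2 to 0.0800 ± 0.0458 FPKM, 158-fold lower. Replicate 3 weighs on these folds. That of Tgm2 was 154.5 without replicate 3 in IL-2 and 447 without replicate 3 of the libraries without IL-2, and that of Nov was 283 without the latter. The gene Rprd1b lies on the opposite strand over part of Tgm2, and whether the counting used strand is not given in the sources used here. Rprd1b itself was at 26.3 ± 1.6 FPKM in IL-2 and 19.8 ± 0.8 FPKM without it (SD, n = 3), a log2 change of -0.40 that did not pass the fold limit.

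A gene was called when its adjusted p was below 0.05 and its fold was above 2 or below 0.5. Of the 4 members in the first table, 3 were called lower with PI3Kdi, where 2.10% of all 11262 genes were. For Penk and Il22 that contrast is the one that picked them, and nothing is read from it. Hbegf is the member that fell with the treatment that did not pick it. Its log2 fold change with PI3Kdi was -1.06 (SE 0.31, 95% interval -1.75 to -0.38, adjusted p = 0.039), with means of 1.67 ± 0.48 FPKM in TCR activated cells and 0.757 ± 0.261 FPKM with the inhibitor (SD, n = 3). It was lower in 3 of 3 replicate pairs, with ratios of 0.632, 0.428 and 0.324, and separated groups of this kind were seen for 18.6% of all genes. With the replicate number as a block the adjusted p was 0.014. The call is close to the limits and was lost under 9 of 17 alternatives, while the direction held in all 17. It was lost without replicate 1 of the naïve libraries, replicate 2 or 3 of the TCR libraries, or any of the 3 PI3Kdi libraries. The weakest of these fits were without TCR replicate 2 (log2 change -0.85, adjusted p = 0.14) and without PI3Kdi replicate 3 (log2 change -0.78, adjusted p = 0.13).

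Tgm2 was not called with PI3Kdi. Its log2 fold change was -0.62 (SE 0.35, 95% interval -1.39 to 0.14, adjusted p = 0.25), with means of 1.2 ± 0.46 and 0.737 ± 0.302 FPKM (SD, n = 3). All 3 replicate pairs were lower with the inhibitor, at ratios of 0.407, 0.686 and 0.843. The interval includes both no change and a fall of the size measured for Hbegf, so the inhibitor is not shown to act differently on the 2 genes.

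Of the 4 members in the CTL table, 3 were called lower without IL-2, where 13.9% of all 11211 genes were, and those 3 are the genes this contrast picked. The remaining one, Penk, was not called. Its log2 fold change was -0.99 (SE 0.54, 95% interval -2.20 to 0.21, adjusted p = 0.12), with means of 3.06 ± 1.98 FPKM in IL-2 and 1.26 ± 0.53 FPKM without it (SD, n = 3). It was lower in 3 of 3 replicate pairs, with ratios of 0.326, 0.388 and 0.908, so replicate 3 changed little. With the replicate number as a block the adjusted p was 0.0061, but the fold stayed just inside the limit. Leaving out replicate 3 of the libraries in IL-2 gave a log2 change of -1.70 (adjusted p = 0.0012), which was called lower. Of 14 alternatives this was the 1 in which Penk was called. With the block, the fold limit alone withheld the call, so the result depends on the fit and the limit as well as on this library. The level of Penk that remained without IL-2, 0.79 to 1.84 FPKM, was above that of Nov, at most 0.39 FPKM, and of Hbegf, at most 0.13 FPKM, in the same libraries, while Tgm2 stood at 0.21 to 0.89 FPKM and in replicate 3 was above Penk.

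**Figure D2:**
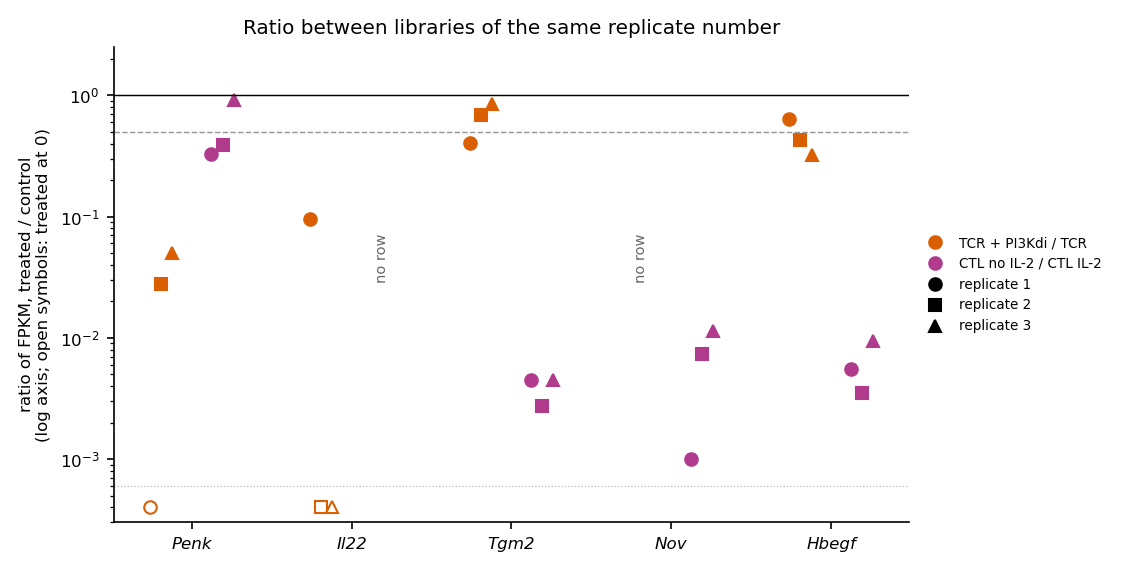
Ratio of FPKM between treated and control libraries of the same replicate number, on a log axis, with the solid line at a ratio of 1, the dashed line at 0.5 and open symbols where the treated cell was blank and read as 0. Hbegf and Tgm2 lie between 0.32 and 0.85 with PI3Kdi and under 0.01 without IL-2, while Penk lies at or below 0.0504 with PI3Kdi and between 0.326 and 0.908 without IL-2.

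**Figure D3:**
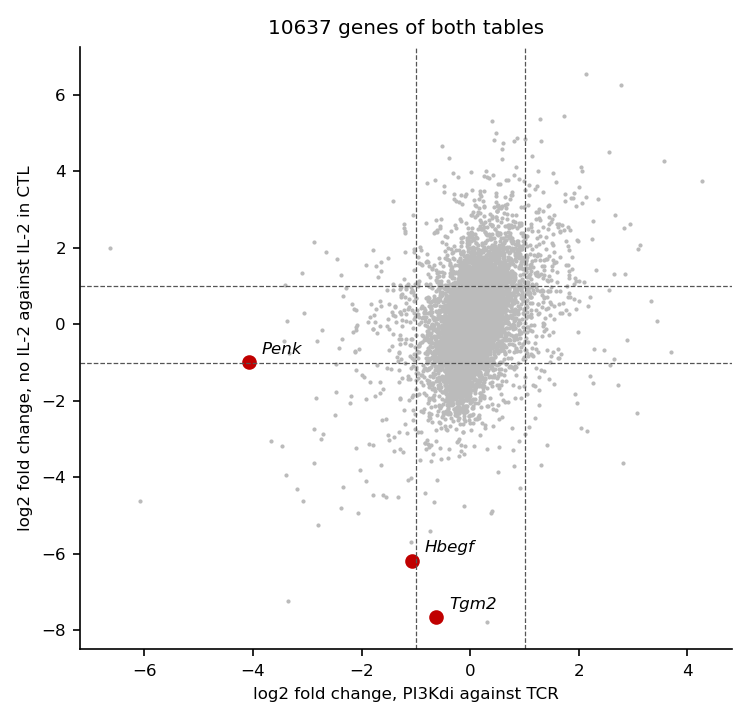
Log2 fold change with PI3Kdi (x axis) against log2 fold change without IL-2 (y axis) for the 10637 genes of both tables (grey) and the 3 members among them (red), with dashed lines at 2-fold. Penk sits at -4.06 and -0.99, Hbegf at -1.06 and -6.18, and Tgm2 at -0.62 and -7.67.

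All 4 measured members stood above the naïve level after 24 h of TCR activation. The activated cells were also cultured with IL-2 and IL-12 and the naïve cells were not, so the effect of the receptor alone was not tested. Each was called higher after TCR activation, where 25.0% of all genes were, and the activated and naïve libraries did not overlap for any of them, as for 40.7% of all genes. For Tgm2 the log2 fold change was 3.21 (SE 0.35) and for Hbegf it was 3.88 (SE 0.31). These sizes depend on the fit, because the naïve levels were near 0. Over the alternatives they ranged from 1.06 to 5.04 for Tgm2 and from 1.37 to 6.42 for Hbegf. The naïve libraries held an estimated 5 fragments of Tgm2 and 2 of Hbegf in total. Both genes therefore passed the low-count filter through the activated groups, so a rise was close to fixed in advance. Nothing is read from these calls. Penk and Il22 were blank in every naïve library, so no fold is given, and their test shares the TCR libraries with the contrast that picked them.

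Tgm2 and Hbegf also stood above the naïve level in cells activated with PI3Kdi. Against naïve cells, Tgm2 was called higher with the inhibitor at a log2 change of 2.58 (SE 0.35, adjusted p = 3.5e-05) and Hbegf at 2.82 (SE 0.31, adjusted p = 6.8e-06), where 23.6% of all genes were. Both calls were lost with a pseudocount of 1, where the log2 changes were 0.73 and 0.77. For both genes every inhibited library was above every naïve library, as for 41.9% of all genes. The inhibited libraries shared the naïve level of 0 in replicate 1 for Penk and in replicates 2 and 3 for Il22. Both comparisons use the same 3 naïve libraries, so they are given side by side. Naïve levels of Tgm2 and Hbegf were near 0, so only a rise could be seen and nothing is read from its size.

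The partner genes of the members and other T cell cytokines were described from 11 lists. These held 140 genes apart from the members, of which 78 had a row in the first table and 75 in the CTL table. With PI3Kdi, 16 of the 78 were called lower and 8 higher, where 2.10% and 3.04% of all genes were, with a median log2 change of -0.14 where that of all genes was -0.01. Without IL-2, 22 of the 75 were called lower and 16 higher, where 13.9% and 14.3% of all genes were, with a median of -0.20 where that of all genes was 0.00. The list of other T cell cytokines held 11 of the lower calls with PI3Kdi and 12 of those without IL-2. It held 0 and 3 of the higher calls. These pooled counts therefore do not describe the partners alone. No other opioid peptide or opioid receptor of 7 and no other CCN family gene of 5 had a row in either table.

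The list of prohormone processing and enkephalin breakdown had 10 tested genes. Without IL-2, 4 were called higher and 1, Pcsk4, lower (5 higher and 3 lower at an unadjusted p under 0.05), and with PI3Kdi 1 was called lower and 0 higher by limma (2 higher at an unadjusted p under 0.05). Of all genes, 14.3% were called higher and 13.9% lower without IL-2, and 2.10% lower and 3.04% higher with PI3Kdi. Pcsk1, a convertase of neuroendocrine cells, fell with PI3Kdi from 0.537 ± 0.225 to 0.167 ± 0.068 FPKM (SD, n = 3), a log2 change of -1.22 (adjusted p = 0.019). This call was lost without replicate 1 or 2 of the TCR libraries or replicate 1 of the PI3Kdi libraries, at adjusted p of 0.053, 0.071 and 0.070, with only the groups compared (0.057), and with a pseudocount of 1 (log2 change -0.39). In CTL it was listed at 0 in every library in IL-2 and at 0.55, 0.50 and 0.49 FPKM without it. Scg5, a chaperone of a prohormone convertase, went from 0.0933 ± 0.0321 to 3.23 ± 0.45 FPKM without IL-2, a log2 change of 4.11 (adjusted p = 5.0e-07). Ctsl, the protease cathepsin L, went from 0.277 ± 0.211 to 2.93 ± 0.19 FPKM (log2 change 3.14, adjusted p = 2.4e-05), and Dpp4, a dipeptidyl peptidase, from 24.2 ± 2.6 to 59.6 ± 8.3 FPKM (log2 change 1.29, adjusted p = 8.5e-06).

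Among 5 tested genes of the IL-10 family and its receptors, Il24 was the one called lower with PI3Kdi, where 2.10% of all genes were. Il24 encodes interleukin-24 and was 4.63 ± 3.38 FPKM in TCR activated cells and 0.313 ± 0.242 FPKM with PI3Kdi (SD, n = 3), a log2 change of -3.36 (SE 0.54, adjusted p = 0.0019). In CTL it fell from 44.2 ± 8.0 to 0.203 ± 0.106 FPKM without IL-2 (log2 change -7.24, adjusted p = 1.1e-07). Il10, the founding cytokine of the family, was not called with PI3Kdi, at 5.44 ± 2.16 and 6.51 ± 1.55 FPKM, but fell from 79.0 ± 18.5 to 0.267 ± 0.116 FPKM without IL-2 (log2 change -7.78, adjusted p = 6.1e-08).

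Genes of the type 17 and aryl hydrocarbon receptor programme, which holds known regulators of Il22 in other T cells, rose with PI3Kdi in part. Of 17 tested, 5 were called higher and 0 lower by limma (2 lower at an unadjusted p under 0.05), where 3.04% and 2.10% of all genes were called. Ahr, the receptor itself, rose from 2.64 ± 0.69 to 6.55 ± 0.90 FPKM (SD, n = 3), a log2 change of 1.30 (adjusted p = 0.0019), and the transcription factor Maf rose from 0.967 ± 0.366 to 4.90 ± 1.07 FPKM (log2 change 2.27, adjusted p = 3.9e-04). In CTL, 2 of 13 were called lower and 4 higher without IL-2, where 13.9% and 14.3% of all genes were. Ahr went the opposite way there, from 5.94 ± 0.48 to 0.370 ± 0.053 FPKM (log2 change -3.69, adjusted p = 2.8e-07). Il6ra, a subunit of the IL-6 receptor, rose in both comparisons, by 2.07 on the log2 scale with PI3Kdi (adjusted p = 1.5e-05) and by 4.02 without IL-2 (adjusted p = 9.7e-07). The naïve level of Il6ra, 61.5 ± 6.4 FPKM, was above both 1.34 ± 0.04 FPKM in TCR activated cells and 6.02 ± 1.35 FPKM with PI3Kdi. Rora, a nuclear receptor, rose without IL-2 from 1.96 ± 0.50 to 10.6 ± 0.5 FPKM (log2 change 2.41, adjusted p = 2.0e-06).

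Tgm1, which encodes another transglutaminase, fell with Tgm2 in CTL without IL-2, from 2.45 ± 0.54 to 0.183 ± 0.040 FPKM (SD, n = 3), a log2 change of -3.16 (adjusted p = 2.4e-06). With PI3Kdi it was called higher, from 0.440 ± 0.336 to 1.21 ± 0.36 FPKM (log2 change 1.42, adjusted p = 0.033), a call lost without replicate 2 or 3 of the TCR libraries or replicate 1 or 2 of the PI3Kdi libraries, at adjusted p of 0.097, 0.088, 0.11 and 0.092. It was also lost with a pseudocount of 1 (log2 change 0.63) or 0.01 (adjusted p = 0.13) and with only the groups compared (adjusted p = 0.067). Retinoic acid is a known inducer of Tgm2. Of 8 tested genes of the retinoic acid response, 2 were called lower with PI3Kdi, where 2.10% of all genes were. Crabp2, a retinoic acid binding protein, fell from 147 ± 56 to 39.6 ± 24.8 FPKM (log2 change -2.05, adjusted p = 0.014), a call lost with a pseudocount of 0.01 (adjusted p = 0.12). Stra6, a retinol transporter, fell from 3.06 ± 0.66 to 0.183 ± 0.085 FPKM (log2 change -3.50, adjusted p = 1.2e-05). Without IL-2, 1 of 7 was called, and it was higher, where 14.3% of all genes were. This was Dhrs3, a retinaldehyde reductase, which rose from 0.967 ± 0.506 to 6.99 ± 1.78 FPKM (log2 change 2.84, adjusted p = 8.9e-05).

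The receptors described for CCN proteins were 8 genes in the first table, 0 of them called with PI3Kdi by limma where 5.14% of all genes were (3 lower and 2 higher at an unadjusted p under 0.05), and 9 in the CTL table. Without IL-2 the integrin subunit gene Itgav fell from 29.7 ± 3.6 to 13 ± 0.6 FPKM (SD, n = 3), a log2 change of -1.18 (adjusted p = 7.7e-06). Its partner Itgb3 rose from 4.41 ± 0.66 to 38.6 ± 2.7 FPKM (log2 change 3.11, adjusted p = 1.7e-07).

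Of the EGF family ligands and receptors, Egf and Erbb3 had rows and neither was called with PI3Kdi, nor had an unadjusted p under 0.05. Erbb3, a receptor of the family, rose without IL-2 from 1.37 ± 0.27 to 2.95 ± 0.62 FPKM (SD, n = 3), a log2 change of 1.05 (adjusted p = 0.0015) that fell inside the fold limit without replicate 3 in IL-2 (0.88) or replicate 1 (0.95) or 2 (0.97) without IL-2, and with a pseudocount of 1 (0.73). Among the genes that release or hold membrane precursors such as that of Hbegf, 1 of 12 was called lower and 2 higher with PI3Kdi, and 3 of 10 lower and 2 higher without IL-2. Of all genes, 2.10% and 3.04% were called lower and higher with PI3Kdi, and 13.9% and 14.3% without IL-2. Timp2, an inhibitor of metalloproteinases, rose in both, from 1.35 ± 0.23 to 10.4 ± 2.8 FPKM with PI3Kdi (log2 change 2.83, adjusted p = 6.9e-06) and from 0.117 ± 0.083 to 1.12 ± 0.35 FPKM without IL-2 (log2 change 2.53, adjusted p = 9.8e-05, but 0.92 and inside the fold limit with a pseudocount of 1). Naïve cells held Timp2 at 29.65 ± 0.59 FPKM, above both groups of activated cells. Cd9, a tetraspanin that binds the precursor of Hbegf, rose without IL-2 by 2.17 on the log2 scale (adjusted p = 4.1e-06). Rhbdf2, which encodes a carrier of the sheddase ADAM17, fell by 1.64 (adjusted p = 2.6e-06). Adam19, another metalloproteinase, rose with PI3Kdi by 1.63 (adjusted p = 2.8e-04).

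**Figure D4:**
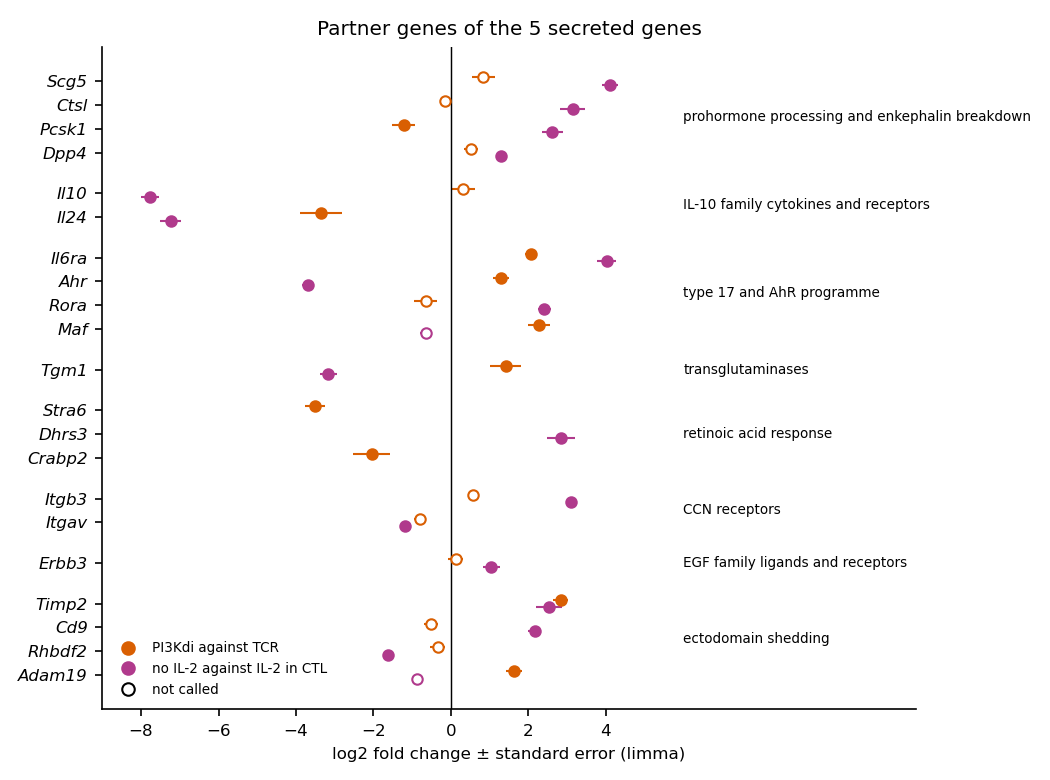
Log2 fold change with its standard error for the partner genes named from the lists, with PI3Kdi (orange) and without IL-2 (purple), and open symbols where the gene was not called. Timp2 and Il6ra lie above 2 in both comparisons, Il24 lies below -3 in both, and Ahr and Tgm1 lie on opposite sides of 0.

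The other T cell cytokines give a setting for the members. With PI3Kdi 11 of 15 were called lower and 0 higher by limma (0 also at an unadjusted p under 0.05), where 2.10% and 3.04% of all genes were. Without IL-2 12 of 17 were called lower and 3 higher, where 13.9% and 14.3% of all genes were. Ifng, interferon-γ, was lower in both, by a log2 change of -6.08 with PI3Kdi (adjusted p = 5.9e-09) and of -4.63 without IL-2 (adjusted p = 5.7e-07). Lif, leukaemia inhibitory factor, had log2 changes of -1.09 (adjusted p = 0.0017) and -5.68 (adjusted p = 8.2e-08), the first inside the fold limit without TCR replicate 1 (-0.96) or PI3Kdi replicate 3 (-0.91). Xcl1, a chemokine, went from 237 ± 51 to 2.30 ± 0.64 FPKM with PI3Kdi (SD, n = 3, log2 change -6.63, adjusted p = 1.1e-05) and rose without IL-2 by 2.00 on the log2 scale (adjusted p = 6.6e-04). Il3, which has a row in the first table only, went from 20.5 ± 9.9 to 0.147 ± 0.133 FPKM with PI3Kdi (log2 change -6.42, adjusted p = 1.5e-05).

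The genes whose log2 levels ran most like each member were taken from 9968 genes with a group mean of at least 1 FPKM in each table. For Penk they were Wnt10b, a Wnt ligand, with Pearson r of 0.924 over 9 libraries and 0.919 over 6, then Serpine2 and Nfkb1. For Il22, over 9 libraries, they were Polb (0.971), Ell2 (0.971) and Kctd13 (0.967). For Tgm2 they were Psmb2 (0.983 and 0.984), Pgd and Gadd45g, and for Nov, over the 6 CTL libraries, Il18bp (0.998), D1Ertd622e (0.998) and Mgat5 (0.998). For Hbegf they were Clptm1l (0.989 and 0.998), Eef1e1 and Hspe1. The points share groups and libraries, so these values mostly record differences between groups. Among the members, Penk and Il22 correlated at 0.927 over 9 libraries, and Tgm2, Nov and Hbegf at 0.988 to 0.992 over 6, which the choice of members fixes in part. Penk correlated with Tgm2 at 0.390, with Nov at 0.479 and with Hbegf at 0.491 over the CTL libraries.

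Markers of other cells moved with some of these results, and their part in them was not tested. Of the dendritic cell markers Itgax, Flt3 and H2-Ab1, only H2-Ab1 had a row in the first table (1 of 3). It was at 3.28 to 8.52 FPKM in activated cells and 0.46 to 1.10 FPKM with PI3Kdi. The summed level of the dendritic list in CTL (2 of 3) was 17.34 to 20.74 FPKM in IL-2 and 17.2 to 21.5 FPKM without it, and Itgax alone was at 0.21 to 0.39 FPKM in IL-2 and 3.67 to 5.17 FPKM without it. The mast cell or basophil markers with rows in CTL (2 of 3) went opposite ways, with Cpa3 at 2.20 to 6.11 FPKM in IL-2 and 40.33 to 59.75 FPKM without it, and Mcpt8 at 2.66 to 3.62 and 0.88 to 1.22 FPKM. The only myeloid marker of 5 with a row, Itgam, was at 0.20 to 0.39 and 3.89 to 4.46 FPKM. The regulatory T cell markers Foxp3 and Ikzf2 summed to 1.44 to 1.65 FPKM in TCR activated cells and 1.97 to 3.24 FPKM with PI3Kdi (2 of 2). Neither was called with PI3Kdi. In CTL only Ikzf2 had a row (1 of 2), at 0.18 to 0.37 FPKM in IL-2 and 2.36 to 3.61 FPKM without it. The CD4 T cell marker (1 of 1) was at 0.05 to 0.39 and 0.92 to 1.92 FPKM in these CTL groups. The NK cell marker with a row, Klrb1c (1 of 2), was at 1.2 to 1.88 and 2.17 to 3.41 FPKM and was not called. Neither list had a row in the first table.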

How the data were processed

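Polyadenylated RNA of P14 CD8+ T cells was sequenced from 15 stranded libraries. The authors deposited 2 tables of FPKM rounded to 2 decimals. Per the labels and methods, reads were aligned with STAR 2.5.2b to mm10, counted with Subread 1.5.1, and filtered, TMM normalised and scaled by gene length in edgeR. How the CTL table was made is known only from the tools in its labels. The tables were normalised separately, so no test crosses them. Blank cells were read as 0.

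Values were tested as log2(FPKM + 0.1) with limma 3.58.1 (R 4.3.3) with an intensity trend, on the 9 libraries of the first table and separately on the 6 CTL libraries. The fold change on this scale understates the change of low genes. P-values were adjusted by Benjamini-Hochberg over the whole table, and calls needed an adjusted p below 0.05 and a fold above 2 or below 0.5. The steps were tested on simulated data. Genes named beside the members are up to 4 called genes of each list by size of change and the 3 genes most correlated with each member. The results of 2 marker lists are not reported here. The members and lists were chosen with earlier results of these data known. Groups came from sample titles, since the treatment labels of 2 CTL replicates kept in IL-2 name other interleukins.

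Depth was estimated from the spacing of values under 0.4 FPKM in genes with exons under 2500 bases in all, and 16 of 18 member values above 0 and under 20 estimated fragments lay within 0.3 of a whole number. Exon lengths and positions came from GENCODE M21, whose build is mm10.

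Replicate numbers in the first table mark cells of the same pooled mice. Deviations from the group means of same-numbered TCR and PI3Kdi libraries correlated at 0.275, 0.203 and 0.506 over 10072 genes with a mean of at least 1 FPKM, and those of the CTL libraries at 0.123, 0.166 and 0.257 over 10263 genes. Both were taken as paired for the replicate ratios and the fits with a block, the CTL from the data alone. The reported fits held no term for the replicate number. Their standard errors, intervals and p-values therefore ignore the pairing.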

Additional observations from a re-analysis of the deposited data

How the results depend on the processing

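The number of members called lower with PI3Kdi was 3 and ranged from 2 to 3 over 17 alternatives, with Hbegf the gene lost: with a pseudocount of 1 its log2 change was -0.60, with a pseudocount of 0.01 its adjusted p was 0.29, and with only the groups compared it was 0.052. The number called lower without IL-2 was 3, and ranged from 3 to 4 when single replicates were left out, with 4 without replicate 3 of the CTL in IL-2. In the reported fits 2.10% of all genes were called lower with PI3Kdi and 13.9% without IL-2. Penk and Il22 with PI3Kdi, and Tgm2, Nov and Hbegf without IL-2, were called in the contrast that picked them. Nothing is read from the stability of those calls. All 4 members tested against naïve cells remained higher after activation in all 17 alternatives. Penk and Il22 were blank in every naïve library and were picked from a contrast with the same TCR libraries. Tgm2 and Hbegf were near 0 in the naïve libraries and passed the low-count filter through the activated groups. Nothing is read from this for any of the 4. Of the members higher with PI3Kdi than in naïve cells, 2 in the reported fit, 0 were called with a pseudocount of 1 and 3 with one of 0.01. A filter at a mean of 1 FPKM removes members from the first table and gave no value there.

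With the replicate number as a block, 3 members were called lower with PI3Kdi and 3 without IL-2, as without the block, and the adjusted p of Penk without IL-2 went from 0.12 to 0.0061 with no change of call. Of the calls with the block, only that of Hbegf with PI3Kdi lay outside the contrast that picked the gene.

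For the lists, the alternatives were added after the data were seen. Genes called higher with PI3Kdi numbered 8, and 5 with only the groups compared, and ranged from 5 to 8 when single replicates were left out (5 without replicate 2 of the TCR libraries). Genes called higher without IL-2 numbered 16, and 26 with no fold limit. Small changes that were not called turned sign when a replicate was left out. With PI3Kdi, Il10 ranged from -0.061 (without TCR replicate 2) to 0.55. Erbb3 ranged from -0.014 (without TCR replicate 2) to 0.20, and was -0.0092 without PI3Kdi replicate 3. Il18bp ranged from -0.43 to 0.22 (without TCR replicate 1), and was 0.051 without PI3Kdi replicate 1. Without IL-2, Polb ranged from -0.16 to 0.043 (without replicate 2 of the CTL without IL-2), and was 0.012 without replicate 3 of the CTL in IL-2. The cause of these changes was not tested. Levels of a few fragments, such as Penk and Il22 with PI3Kdi, limit the precision of folds.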
